A study of Homo sapiens with 15 samples.

Results

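Mitochondrial ribosomal protein (MRP) genes were taken as every row of the deposited expression table whose name is MRPL or MRPS, a number and at most 1 letter from A to C. This gave 77 of 26364 gene rows, 48 named MRPL for the large subunit and 29 named MRPS for the small subunit. By structure MRPS18A and MRPS30 lie in the large subunit, so names and subunits differ, with 50 large and 27 small. All 77 members passed the filter for testing (an average over the 15 libraries of 1 TPM or more). Their RNA was measured in the established human myeloma line RPMI-8226 after 100 nM KB528 for 1, 3, 6 or 24 h and in DMSO at 0 h, in wild-type cells with 3 strand-specific mRNA libraries in each of the 5 groups. According to the labels KB528 blocks the KAT (lysine acetyltransferase) function of p300, a transcriptional coactivator. DMSO was sampled at 1 time, so time in culture and KB528 cannot be told apart, and no label says that the 3 libraries of a group are separate cultures, so p-values reflect only how far these libraries differ, possibly for technical reasons. The 9 plasma cell genes checked averaged 1.66 TPM (SLAMF7) to 2620 TPM (MZB1) in DMSO, with SDC1 at 243 TPM, and summed to 1940 to 3890 TPM over the libraries. Of 4 T cell genes, CD3D and CD2 were at 0 in all libraries, while CD3E reached 0.952 TPM and CD8A 2.85 TPM at most. Of 6 epithelial genes, EPCAM and KRT18 were present in DMSO at 113 and 147 TPM, and the rest averaged 0.0374 to 4.21 TPM.

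The mitochondrial ribosome translates the few proteins encoded by mitochondrial DNA, all of them core subunits of oxidative phosphorylation. Its RNAs come from the mitochondrial genome, while every one of its proteins is encoded in the nucleus, made in the cytosol and imported, so a cell must match many separate nuclear genes to build it. Part of the proteins descend from bacterial ribosomal proteins and part exist only in mitochondria. The factors NRF1, GABPA (an ETS factor) and YY1 are known for binding promoters of nuclear genes of mitochondria.

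Promoter sequence is shown for 6 members that carry the results below. MRPL32 and MRPL54 had the widest swing between 6 h and 24 h, and MRPL44 and MRPL42 were higher at 3, 6 and 24 h. MRPL36 had the largest fall against DMSO, and MRPS34 was the most abundant. Each line gives the 250 bases before the gene start, 5′ to 3′ on the gene's strand, from RefSeq on GRCh38.p14, and capitals mark matches on either strand to the letters searched: GCATGCGC for an NRF1 core, CCGGAAG for an ETS (GABPA) core, AAGATGGCG for a YY1 core, CACGTG for an E-box and TATAAA for a TATA box.
MRPL32, chr7:42932126-42932375 on the plus strand: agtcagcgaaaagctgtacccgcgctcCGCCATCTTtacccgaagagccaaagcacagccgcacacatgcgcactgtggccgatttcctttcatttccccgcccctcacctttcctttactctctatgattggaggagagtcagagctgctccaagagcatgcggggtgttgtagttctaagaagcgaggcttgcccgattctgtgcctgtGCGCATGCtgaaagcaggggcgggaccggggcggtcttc
MRPL54, chr19:3762432-3762681 on the plus strand: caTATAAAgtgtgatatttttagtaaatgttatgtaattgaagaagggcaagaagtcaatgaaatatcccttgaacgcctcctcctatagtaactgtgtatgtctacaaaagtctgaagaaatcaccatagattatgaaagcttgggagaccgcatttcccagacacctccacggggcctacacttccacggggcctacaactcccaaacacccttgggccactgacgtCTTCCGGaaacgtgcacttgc
MRPL44, chr2:223957213-223957462 on the plus strand: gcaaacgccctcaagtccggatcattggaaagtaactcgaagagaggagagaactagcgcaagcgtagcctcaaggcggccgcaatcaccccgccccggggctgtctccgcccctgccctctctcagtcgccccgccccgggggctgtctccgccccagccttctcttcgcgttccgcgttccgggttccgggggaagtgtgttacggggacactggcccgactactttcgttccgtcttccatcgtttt
MRPL42, chr12:93467264-93467513 on the plus strand: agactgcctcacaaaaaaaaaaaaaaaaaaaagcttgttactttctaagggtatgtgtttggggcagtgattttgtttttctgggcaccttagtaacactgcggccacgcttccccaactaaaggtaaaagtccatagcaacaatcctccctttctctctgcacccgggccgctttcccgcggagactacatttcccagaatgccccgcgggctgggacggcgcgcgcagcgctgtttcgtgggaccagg
MRPL36, chr5:1799838-1800087 on the minus strand: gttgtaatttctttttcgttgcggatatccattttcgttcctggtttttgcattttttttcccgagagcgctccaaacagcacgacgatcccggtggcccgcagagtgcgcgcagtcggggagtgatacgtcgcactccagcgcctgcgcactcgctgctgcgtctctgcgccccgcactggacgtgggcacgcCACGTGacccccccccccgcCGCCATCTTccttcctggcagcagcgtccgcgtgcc
MRPS34, chr16:1773135-1773384 on the minus strand: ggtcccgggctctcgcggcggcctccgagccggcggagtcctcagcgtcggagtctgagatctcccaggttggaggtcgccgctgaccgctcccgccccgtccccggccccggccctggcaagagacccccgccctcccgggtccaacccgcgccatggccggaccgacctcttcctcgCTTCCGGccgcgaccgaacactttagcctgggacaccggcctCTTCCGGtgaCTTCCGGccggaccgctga
The MRPL32 window held 1 YY1 and 1 NRF1 match, that of MRPL54 held 1 TATA and 1 ETS match, that of MRPL36 held 1 E-box and 1 YY1 match, and that of MRPS34 held 3 ETS matches. None of these letters were in the 250 bases printed for MRPL44 and MRPL42, and MRPL42 has a YY1 core past its start, from position 8.

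A promoter entry was found for 68 of the 77 members, with 84 windows, and none was matched for MRPL2, MRPL10, MRPL13, MRPL15, MRPL21, MRPL23, MRPL35, MRPS28 and MRPS36. Over the 250 bases before to 50 after the start, the ETS core was in 38.1% of the members' windows, against 18.2% of 12451 windows of other tested genes and 10.3% of all 35116 windows. The YY1 core was in 15.5% of the members' windows, against 3.72% and 1.75% of those sets. With only the 250 bases before the start, the members' YY1 share was 3.57%, so most YY1 matches lay past the start. The NRF1 core differed less, with 7.14% against 5.15% and 3.05%, the E-box was in 10.7% against 9.59% and 7.26%, and the TATA box in 3.57% against 5.72% and 11.5%. Matches of 2 motifs overlapped in 0 of the members' windows. Of the 68 members, 39 had at least 1 NRF1, ETS or YY1 match. For KB528 24 h against 6 h the median log2 fold change was -0.32 for the 13 members with the YY1 core and -0.18 for the 55 without. It was -0.30 for the 29 with the ETS core and -0.20 for the 39 without, -0.33 for the 6 with the NRF1 core and -0.20 for the 62 without, and -0.21 both with and without the E-box. Against DMSO at 24 h the order was other for the ETS core, with -0.06 for members that hold it and -0.11 for those that do not. These are counts of letters and medians, with no test between the sets.

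**Figure D1:**
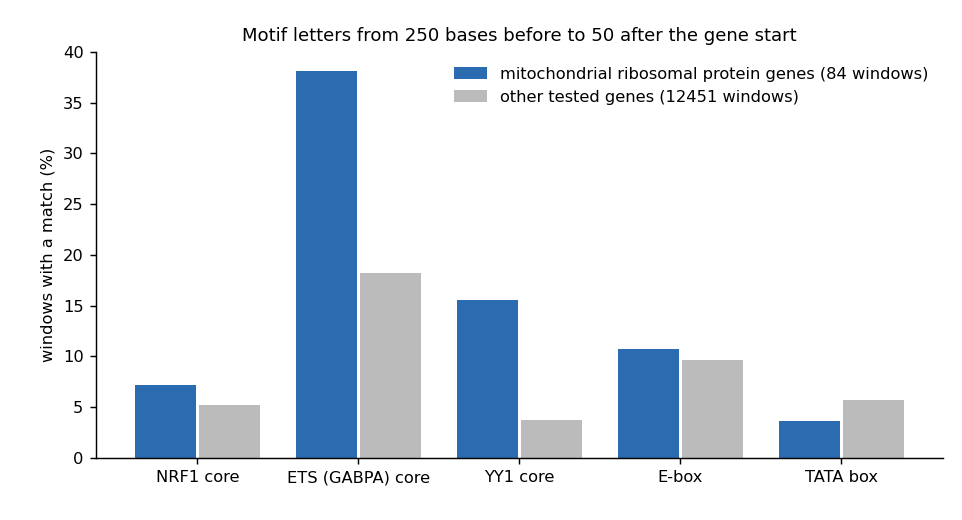
Share of promoter windows (y axis, %) with at least 1 match to each motif's letters (x axis), for mitochondrial ribosomal protein genes and other tested genes. The ETS bar stands at 38.1% for the members and 18.2% for the other genes, and the YY1 bar at 15.5% and 3.72%.

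Every value is a TPM (a transcript abundance from which transcript length and library size are already divided out), and fold changes come from limma on log2(TPM + 1) over all 12002 tested genes. A call means a Benjamini-Hochberg adjusted p under 0.05. Spike-in RNA took 9.35% to 16.6% of the TPM of a library, relative depth lay between 0.759 and 1.12, and 1 read in a transcript of 1000 bases was worth 0.0302 to 0.0458 TPM. Total depth is unknown. DMSO replicate 3 stood apart for these genes: it was the lowest DMSO library for 58 members, against 6 for replicate 1 and 13 for replicate 2. Counts without DMSO replicate 3 are given below. KB528 3 h replicate 2 also differed from its group: the members made up 1.17% of its gene TPM, against 1.14% and 1.11% in replicates 1 and 3. Without KB528 3 h replicate 2, 20 members were higher and 19 lower at 3 h. In bulk RNA, fewer cells and less RNA per cell cannot be told apart.

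Members differed widely in level. In DMSO the means ran between 2.70 TPM for MRPS24 and 722 TPM for MRPS34, with a median of 84.8 TPM, against 15.9 TPM for all tested genes. MRPS34, a small-subunit protein found only in mitochondria, was followed by MRPL12 with 501 TPM, the protein of the flexible stalk that contacts translation factors, and MRPL51 with 394 TPM. MRPL44, a large-subunit protein with an RNase III fold, had 18.4 TPM and MRPL19 had 12.3 TPM. MRPL names had a median of 103 TPM and MRPS names of 76.4 TPM. MRPS24 shares sequence with the read-through row URGCP-MRPS24, so its low level is uncertain. MRPS31, MRPL42 and MRPL45 have copies in the table (MRPS31P5, MRPL42P5 and MRPL45P2, with means of 2.74, 0.0472 and 4.62 TPM) with which reads may be shared, and the sources used here do not give whether the authors' counting used strand, which matters for MRPL23 and its antisense row. Together the members made up 1.06% to 1.14% of gene TPM in DMSO libraries, 1.05% to 1.06% at 1 h, 1.11% to 1.17% at 3 h, 1.12% to 1.14% at 6 h and 1.00% to 1.02% at 24 h. The sum at 24 h was below that of every library of the other groups.

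The members' changes were small, and the share called was near that of all tested genes. The moderated F test over the time course called 69 of 77 members (89.6%), against 93.6% of all tested genes. The largest log2 fold change against DMSO reached 0.5 in size in 4 members (5.19%), MRPL36, MRPL39, MRPL42 and MRPL44, against 47.8% of tested genes, and 1 in 0 members. The median of that largest size was 0.247 for members and 0.485 for tested genes. The sets differ in level (DMSO medians of 84.8 and 15.9 TPM), and sizes were not compared at matched level. At 1 or more times against DMSO 70 members were called (90.9%, against 93.5% of tested genes), and 12 were called in opposite directions at different times (15.6%, against 24.2%). Called higher at 6 h and lower at 24 h, with the difference between these times also called, were 11 members (14.3%), against 2.63% of tested genes. Turns of either direction between any consecutive times, on the same terms, took 15.7% of tested genes. The 4 comparisons with DMSO share the same DMSO libraries.

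At 1 h, 3 members were higher and 10 lower than DMSO, where 15% and 7.57% of tested genes were called, and the median log2 fold change was -0.06 for members and 0.04 for all tested genes. MRPL44, MRPL49 and MRPL16 were higher. MRPL36, MRPS14, MRPL34, MRPS11 and MRPL17 were the 5 lowest of those called, with log2 fold changes of -0.28, -0.25, -0.21, -0.20 and -0.18. The count of lower members rested on single libraries: it was 24 without DMSO replicate 3, 4 without DMSO replicate 1 or 2, and 5 without KB528 1 h replicate 1 or 2, and the count of higher members was 5 without DMSO replicate 3. Median-ratio scaling, which sets the median gene equal between libraries, gave 2 higher and 19 lower, and spike-in scaling 0 and 0.

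At 3 h, 20 members were higher and 9 lower, where 24.9% and 32% of tested genes were called. The median was 0.02 for members and -0.04 for all tested genes, and it was -0.20 for members under spike-in scaling. The lower count was 22 without DMSO replicate 3, 5 without DMSO replicate 1 and 19 without KB528 3 h replicate 2. Median-ratio scaling gave 21 higher and 7 lower, spike-in scaling 0 and 4, and a correction for transcript length 32 and 6.

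At 6 h, 35 members were higher and 12 lower, where 44.4% and 24.5% of tested genes were called. The median was 0.10 for members and 0.12 for all tested genes. Without DMSO replicate 3 the counts were 31 and 14. Of the MRPL names 25 of 48 were higher and 6 lower, and of the MRPS names 10 of 29 were higher and 6 lower. The direction of the set depended on the scaling, with a median of -0.05 under median-ratio scaling (18 higher, 27 lower) and of 0.29 under spike-in scaling (20 higher, 0 lower). The shift that median-ratio scaling put on all values was -0.157 (log2) at 6 h and -0.201 at 24 h. That of spike-in scaling was -0.224 at 3 h and 0.189 at 6 h.

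At 24 h, 9 members were higher and 35 lower, where 56.1% and 15.2% of tested genes were called. The median was -0.08 for members and 0.23 for all tested genes. Among the lower members were 23 of the 48 MRPL names and 12 of the 29 MRPS names. By structure these were 25 of 50 large and 10 of 27 small. The median stayed below 0 under each scaling tried, at -0.28 with median-ratio scaling, -0.10 with spike-in scaling and -0.25 with the length correction. The calls did not all stay: median-ratio scaling gave 0 higher and 58 lower, the length correction 1 and 55, and spike-in scaling 0 and 1. Spike-in scaling shifted the 24 h values by -0.0173 (log2), so a call that ended under it does not show a smaller change. The spike-in share differed within groups, at 11.3%, 14.8% and 13.8% in DMSO and 13.5%, 12.3% and 14.5% at 24 h. Without KB528 24 h replicate 2 the count of higher members was 5, and without DMSO replicate 3 the counts were 6 higher and 38 lower.

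**Figure D2:**
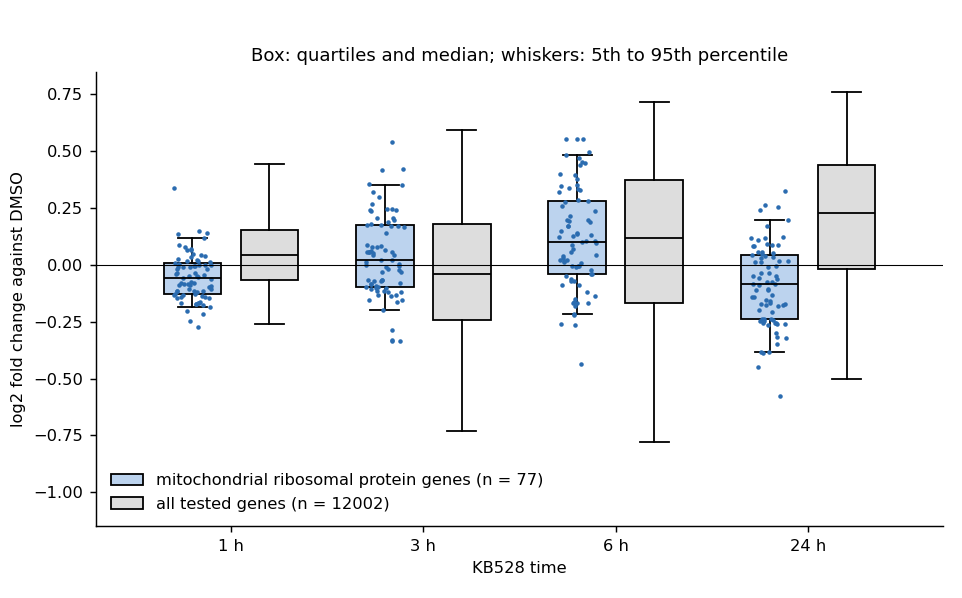
Log2 fold change against DMSO (y axis) at each KB528 time (x axis) for the 77 members, with a point for each gene, and for all 12002 tested genes, as boxes of quartiles and median with whiskers at the 5th and 95th percentiles. At 24 h the members' median is -0.08 and that of all tested genes 0.23. At 6 h the medians are 0.10 and 0.12, and the members' median is -0.05 under median-ratio scaling.

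The members are shorter than most genes, with a median transcript length of 1532 bases against 3174 for tested genes. Among genes of 1086 to 1969 bases, the middle of the members' range, 12.8% of 39 members were higher at 24 h and 41.0% lower, against 48.2% and 21.7% of 1708 other genes. Their medians were -0.08 and 0.13. Members of high level in DMSO also stood lower at 24 h, with a Spearman correlation of -0.40 across the 77 genes between level and log2 fold change, given as a description since the DMSO libraries enter both. At 1, 3 and 6 h against DMSO the correlation was -0.274, -0.252 and -0.345, so it was not particular to 24 h. For KB528 24 h against 6 h, where DMSO enters only the level, it was 0.08. At 24 h against DMSO, the third of the members with the highest levels (143 to 722 TPM, 26 genes) had 2 higher and 16 lower. The third with the lowest levels (2.70 to 56.6 TPM, 25 genes) had 5 higher and 8 lower. Their median transcript lengths were 1198 and 1969 bases, so level and length went together. At 24 h against 6 h the same sets had 14 and 16 lower members, and the 26 genes between them had 21.

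The folds between consecutive times use no DMSO library, although all libraries share the estimate of the spread. KB528 3 h against 1 h gave 22 higher members and 0 lower (1 lower at an unadjusted p under 0.05, limma), where 15.2% and 31.8% of tested genes were called. With median-ratio scaling 34 were higher and with spike-in scaling 0 (0 lower under both), and the lower count was 1 without KB528 3 h replicate 2 or 3. KB528 6 h against 3 h gave 25 higher and 2 lower, where 42.3% and 13.7% of tested genes were called. This split also turned with the scaling, with 1 higher and 23 lower under median-ratio scaling, 48 and 0 under spike-in scaling and 16 and 12 under the length correction. Without KB528 3 h replicate 2, or KB528 6 h replicate 1 or 3, the lower count was 0.

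KB528 24 h against 6 h gave 8 higher and 51 lower members, where 41% and 26% of tested genes were called. The median was -0.21 for members and 0.08 for all tested genes. Lower members were 32 of 48 MRPL names and 19 of 29 MRPS names. Leaving out 1 library at a time gave 48 to 50 lower members, median-ratio scaling 52, the length correction 62 and spike-in scaling 31. The higher count was 3 without KB528 6 h replicate 1, 5 without any 1 of the KB528 24 h libraries, 3 with median-ratio scaling, 2 with the length correction and 0 with spike-in scaling. Higher members included MRPS14, by 0.32 on the log2 scale, and MRPL33, by 0.31.

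**Figure D3:**
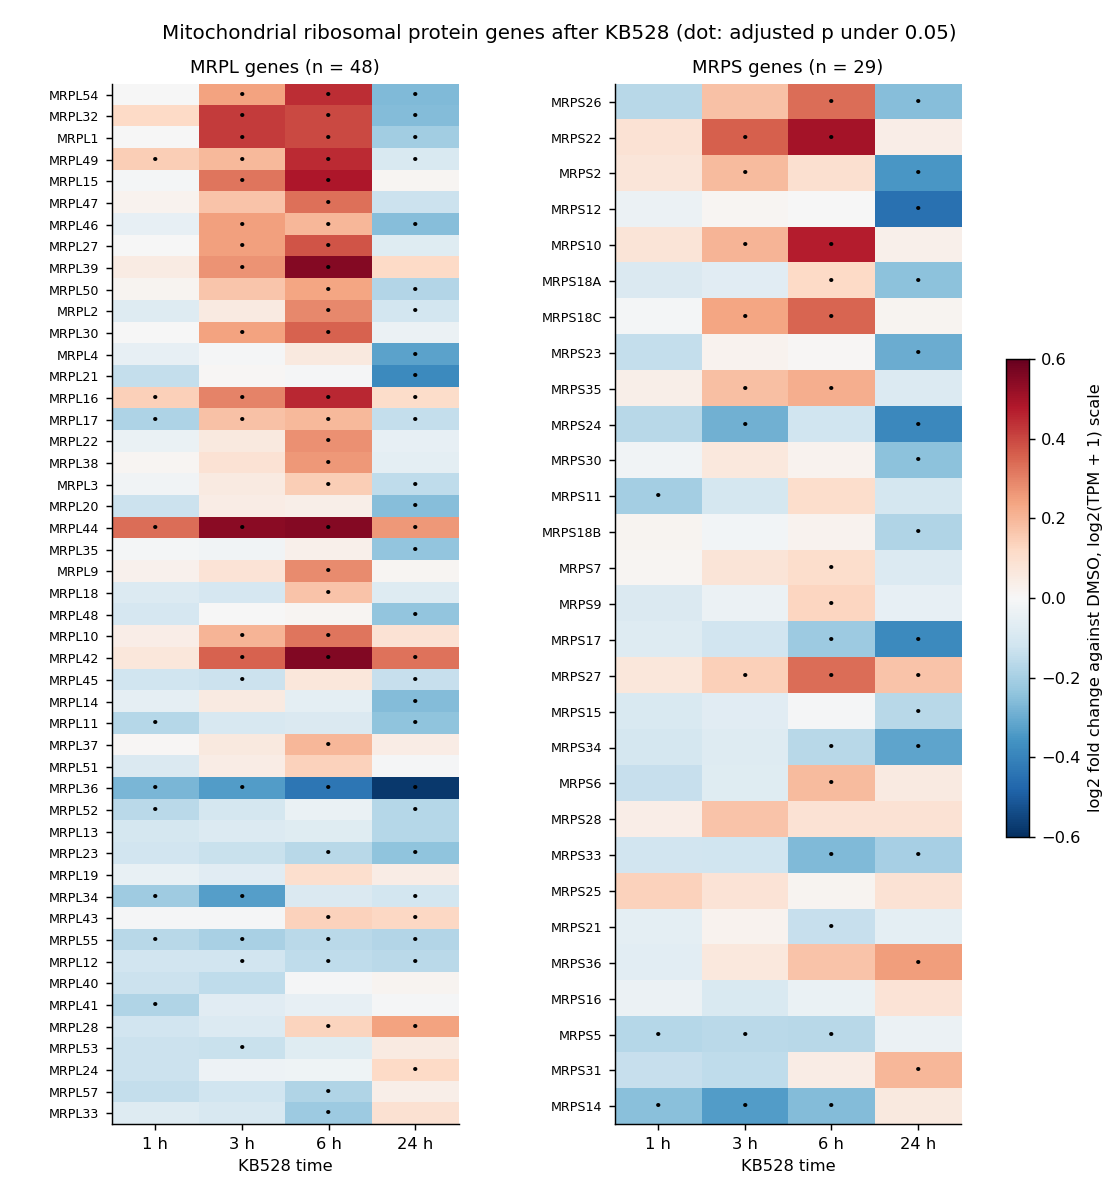
Log2 fold change against DMSO (colour, red higher and blue lower) of each MRPL gene (left) and MRPS gene (right) at 4 KB528 times (x axis), with a dot where the adjusted p is under 0.05, ordered by the change at 24 h against 6 h. Red at 6 h gives way to blue at 24 h in the upper rows, with MRPL54 at 0.44 and -0.27. With median-ratio scaling 18 members were higher at 6 h in place of 35.

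Among large-subunit members, MRPL44 was higher at all 4 times. Its TPM were 18.7, 18.1 and 18.5 in DMSO, 22.5, 22.8 and 25.5 at 1 h, 26.2, 28.3 and 27.3 at 3 h, 26.9, 27.5 and 28.2 at 6 h and 21.1, 22.2 and 23.8 at 24 h. Every KB528 library lay above all DMSO libraries. The log2 fold changes were 0.34, 0.54, 0.55 and 0.26 in time order (SE 0.06 each, adjusted p = 0.000554, 1.13e-06, 5.5e-07 and 0.000711).

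MRPL42, found only in mitochondria, was higher at 3, 6 and 24 h. It had 26.4, 22.9 and 22.4 TPM in DMSO, 24.1, 24.9 and 26.1 at 1 h, 28.7, 34.4 and 29.4 at 3 h, 36.6, 34.2 and 35.7 at 6 h and 30.6, 30.03 and 29.6 at 24 h. Groups overlapped at 1 h and at no later time. Its change at 6 h was 0.56 (SE 0.07, adjusted p = 4.36e-06). MRPL16, which has a bacterial counterpart, was also called higher at all 4 times, most at 6 h with 107 ± 1.7 TPM against 77.9 ± 2.4 TPM in DMSO (SD, n = 3 each; log2 fold change 0.45). Its calls at 1 h and 24 h ended without any 1 of 3 libraries: at 1 h DMSO replicate 1 and KB528 replicates 2 and 3 (adjusted p 0.0663 to 0.0956), and at 24 h DMSO replicates 1 and 3 and KB528 replicate 2 (adjusted p 0.058 to 0.0987). At 24 h it was also -0.09 with median-ratio scaling. Spike-in scaling left 0 members called higher at 1 h and 0 at 3 h. This ended the calls of MRPL44 and MRPL16 at both times and that of MRPL42 at 3 h. At 24 h the calls of MRPL44 and MRPL42 ended under 3 alternatives. Their changes were 0.07 and 0.13 with median-ratio scaling and 0.11 and 0.01 with the length correction, and stayed near the reported size with spike-in scaling, at 0.25 and 0.31 (adjusted p = 0.371 and 0.25). The length used for MRPL42 was 15580 bases, against a members' median of 1532, so its length-corrected value is uncertain.

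Another group of large-subunit members was higher at 3 or 6 h and lower at 24 h. MRPL32, a small protein that is trimmed after import before it joins the ribosome, had 127, 125.3 and 114 TPM in DMSO, 130, 137 and 130 at 1 h, 158, 178 and 156 at 3 h, 162, 163 and 158 at 6 h and 99.9, 103 and 102 at 24 h. The libraries at 3 and 6 h all lay above DMSO and those at 24 h all below. Log2 fold changes were 0.42, 0.40 and -0.26 at 3, 6 and 24 h (SE 0.05, adjusted p = 5.42e-06, 5.82e-06 and 0.000339). MRPL32 had the smallest F-test adjusted p of all members, 2.51e-08. With spike-in scaling its calls at 3 h and 24 h ended, while that at 6 h stayed.

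MRPL54, found only in mitochondria, had the widest swing between 6 h and 24 h. Its TPM were 122, 118 and 103 in DMSO, 116, 111 and 115 at 1 h, 132, 148 and 127 at 3 h, 154, 156 and 156 at 6 h and 92.6, 98.5 and 93.4 at 24 h. Libraries at 24 h lay below and those at 3 and 6 h above all DMSO libraries. At 24 h against 6 h it fell by 0.71 on the log2 scale (SE 0.06, adjusted p = 1.17e-07), and against DMSO it was 0.44 higher at 6 h and -0.27 at 24 h. With spike-in scaling its calls against DMSO at 3 h and 24 h ended, while that at 6 h stayed.

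MRPL49 and MRPL1 were also called higher at 3 and 6 h and lower at 24 h. With spike-in scaling only their calls at 6 h stayed. MRPL49, a mitochondria-specific protein, averaged 100 ± 1.4, 104 ± 2.1, 124 ± 4.0 and 84.8 ± 1.5 TPM in time order after KB528, against 90.4 ± 2.6 TPM in DMSO (SD, n = 3 each). Its rise at 6 h was 0.45 (adjusted p = 7.01e-08). Its small fall at 24 h (-0.09) lost its call without DMSO replicate 1 or 3 or any KB528 24 h library (adjusted p 0.0535 to 0.138) and with the replicate block. MRPL1, of bacterial descent, averaged 37.5 ± 3.9 TPM at 3 h, 36.8 ± 1.0 at 6 h and 23.9 ± 1.6 at 24 h, against 27.9 ± 3.8 TPM in DMSO. Its fall at 24 h (-0.21) lost its call without DMSO replicate 1 or 2 or KB528 24 h replicate 1 or 2 (adjusted p 0.0609 to 0.193).

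MRPL39 and MRPL15 rose by 6 h and were not called at 24 h. MRPL39, found only in mitochondria, averaged 92.3 ± 1.9 TPM at 6 h against 62.9 ± 6.8 TPM in DMSO (log2 fold change 0.55, SE 0.06, adjusted p = 1.19e-06). MRPL15, a counterpart of a bacterial protein, averaged 61.8 ± 1.1 TPM at 6 h against 43.9 ± 2.4 TPM in DMSO (0.48, adjusted p = 1.22e-06), and with median-ratio scaling it was called lower at 24 h (-0.19, adjusted p = 0.0166). MRPL17 was called at all 4 times, lower at 1 h and 24 h and higher at 3 h and 6 h, within 0.2 log2 units each time. Its call ended without any 1 of 4 libraries at 1 h (DMSO replicates 1 and 2, KB528 replicates 1 and 2, adjusted p 0.0858 to 0.128), of 2 at 3 h (DMSO replicate 3, KB528 replicate 1, 0.0621 to 0.084) and of 3 at 24 h (DMSO replicates 1 and 2, KB528 replicate 2, 0.0818 to 0.198).

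**Figure D4:**
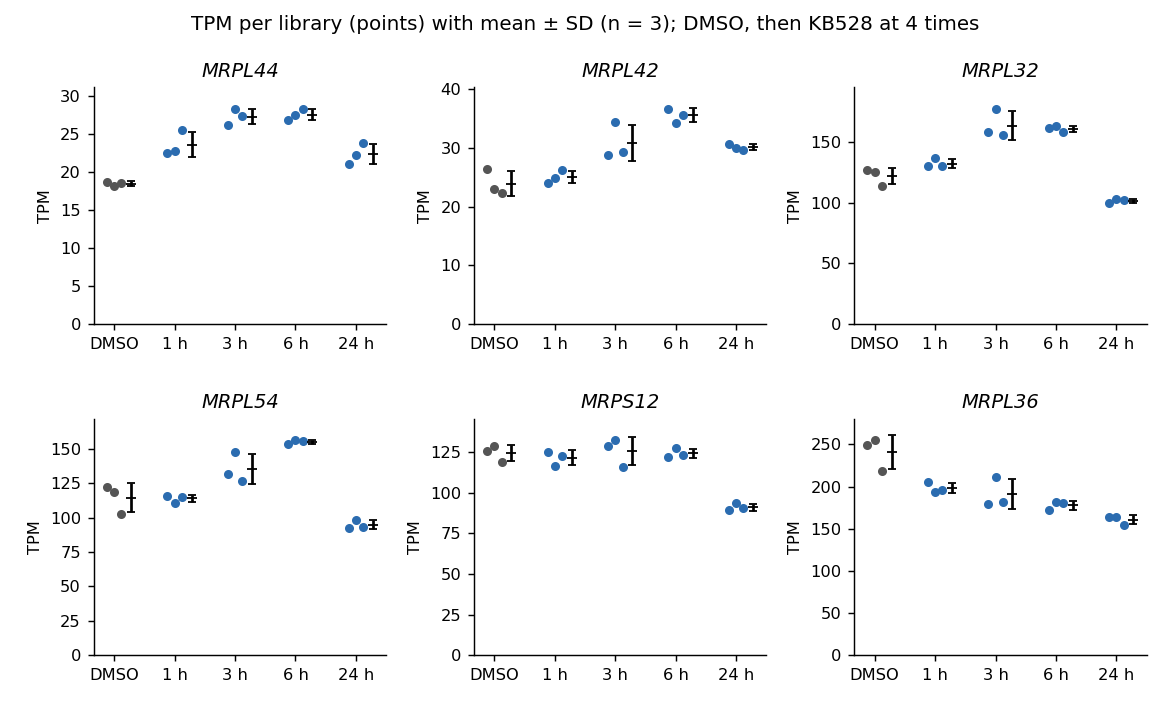
TPM (y axis, from 0) in each library, as points, for 6 members in DMSO and at 4 KB528 times (x axis), with the mean and SD of 3 libraries beside them. MRPL54 reaches 154 to 156 TPM at 6 h and lies at 92.6 to 98.5 TPM at 24 h, while MRPL36 falls below DMSO at every time.

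MRPL36, a small bacterial-type protein of the large subunit, was lower at all 4 times and had the largest fall against DMSO of any member. It had 250, 255 and 218 TPM in DMSO, 206, 194 and 196 at 1 h, 179, 211 and 182 at 3 h, 172, 181 and 180 at 6 h and 164, 164 and 155 at 24 h. Every KB528 library lay below all DMSO libraries. The log2 fold changes were -0.28, -0.34, -0.43 and -0.58 in time order (SE 0.06, adjusted p = 0.00676, 0.000393, 2.47e-05 and 1.71e-06). Spike-in scaling left 0 members called lower at 1 h and 0 at 6 h, which ended the calls of MRPL36 at both times.

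MRPL55 was also lower at all 4 times but by a near-constant amount, with 182 ± 3.6, 179 ± 10.0, 183 ± 7.5 and 182 ± 1.6 TPM in time order against 205 ± 9.2 TPM in DMSO. Its call at 1 h ended without DMSO replicate 1 or 2 or KB528 1 h replicate 2 (adjusted p 0.0636 to 0.0704), and at 6 h it was 0.03 with spike-in scaling. The stalk protein MRPL12 averaged 448 ± 17 TPM at 24 h against 501 ± 25 TPM in DMSO (-0.16, adjusted p = 0.00412). At 3 h its call ended without DMSO replicate 1 or 2 or KB528 3 h replicate 3 (adjusted p 0.0809 to 0.135), and at 6 h it was 0.04 with spike-in scaling. MRPL34, a small bacterial-type protein, was lowest at 3 h with 121 ± 5.2 TPM against 153 ± 11 TPM in DMSO (-0.33, adjusted p = 3.39e-05). Its smaller fall at 24 h (-0.11) lost its call without DMSO replicate 1 or 2 or any KB528 24 h library (adjusted p 0.073 to 0.212).

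MRPL21, of bacterial descent, was called at 24 h and at no earlier time. It averaged 187 ± 5.8 TPM at 24 h against 245 ± 23 TPM in DMSO (-0.38, SE 0.06, adjusted p = 3.1e-05). MRPL33 was lower at 6 h, with 59.0 ± 3.1 TPM against 69.0 ± 6.0 TPM in DMSO (-0.22), a call that ended without DMSO replicate 1 (adjusted p 0.0502). MRPL28 was higher at 24 h, with 224 ± 3.1 TPM against 190 ± 4.6 TPM in DMSO (0.24, adjusted p = 0.000162). Its smaller rise at 6 h (0.13) lost its call without KB528 6 h replicate 3 (adjusted p 0.0716) and was -0.02 with median-ratio scaling. With that scaling and with spike-in scaling its call at 24 h ended.

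In the small subunit, MRPS22 and MRPS10 rose most. MRPS22, found only in mitochondria, had 70.2, 69.9 and 68.3 TPM in DMSO, 74.2, 75.1 and 72.0 at 1 h, 86.3, 98.6 and 83.7 at 3 h, 95.2, 98.6 and 102 at 6 h and 71.9, 69.5 and 73.1 at 24 h. Its libraries at 3 and 6 h lay well above DMSO, and those at 24 h overlapped it. The change at 6 h was 0.50 (SE 0.05, adjusted p = 7.63e-07) and at 24 h 0.04. MRPS10, of bacterial descent, averaged 57.4 ± 0.9 TPM at 6 h and 42.01 ± 0.6 at 24 h, against 41.2 ± 1.7 TPM in DMSO. Its changes were 0.20 at 3 h (-0.01 with spike-in scaling), 0.47 at 6 h (adjusted p = 1.99e-07) and 0.03 at 24 h. At 24 h it was called lower with median-ratio scaling (-0.17, adjusted p = 0.00632) and with the length correction (-0.15, adjusted p = 0.00267).

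MRPS26 and MRPS2 were called in opposite directions. MRPS26, a mitochondria-specific protein, averaged 201 ± 7.8 TPM at 6 h and 133 ± 7.3 at 24 h, against 159 ± 2.6 TPM in DMSO, changes of 0.34 and -0.26. The call at 24 h ended without KB528 24 h replicate 1 (adjusted p 0.0623), and the call at 6 h with median-ratio scaling. MRPS2, of bacterial descent, averaged 163 ± 4.1 TPM at 3 h and 112 ± 1.6 at 24 h, against 143 ± 7.7 TPM in DMSO. Its changes were 0.19 at 3 h (-0.03 with spike-in scaling) and -0.35 at 24 h (adjusted p = 1.99e-05).

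MRPS12, the protein next to the decoding site, was called at no time before 24 h and was low at 24 h. It had 126, 129 and 119 TPM in DMSO, 125.2, 117 and 123 at 1 h, 129, 132 and 116 at 3 h, 122, 128 and 123 at 6 h and 89.2, 93.6 and 90.5 at 24 h. The 24 h libraries lay below all others. At 24 h it fell by 0.45 on the log2 scale (SE 0.05, adjusted p = 1.71e-06).

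MRPS34, the most abundant member, had 748, 727 and 691 TPM in DMSO, 689, 677 and 642 at 1 h, 689, 689 and 673 at 3 h, 616, 661 and 652 at 6 h and 566, 594 and 577 at 24 h. All KB528 libraries lay below DMSO, and the changes at 6 h (-0.17, adjusted p = 0.00196) and 24 h (-0.32, adjusted p = 6.45e-06) were called. At 6 h it was 0.02 with spike-in scaling. MRPS17, of bacterial descent, averaged 88.8 ± 1.6 TPM at 24 h against 116 ± 8.1 TPM in DMSO (-0.38, adjusted p = 1.57e-05) and was also lower at 6 h (-0.22).

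MRPS14, of bacterial descent, was lower at 1, 3 and 6 h and not called at 24 h. Its TPM were 40.2, 38.5 and 35.6 in DMSO, 33.5, 31.0 and 31.1 at 1 h, 29.1, 32.5 and 28.3 at 3 h, 30.1, 33.7 and 31.2 at 6 h and 40.4, 40.2 and 38.3 at 24 h. Libraries at 1, 3 and 6 h lay below DMSO and those at 24 h overlapped it. The changes were -0.25, -0.34, -0.26 and 0.06 (SE 0.06, adjusted p = 0.00992, 0.000289, 0.00165 and 0.426). With spike-in scaling the calls of MRPS14 at 1 h and 6 h ended. MRPS33 was lower at 6 h, with 139 ± 3.6 TPM against 167 ± 10.3 TPM in DMSO (-0.26, adjusted p = 0.0048), and its call at 24 h (-0.20) ended without DMSO replicate 1 or 2 or KB528 24 h replicate 1 or 2 (adjusted p 0.0669 to 0.0906). MRPS11 was lower at 1 h (-0.20), a call that ended without DMSO replicate 1 or 2 or KB528 1 h replicate 1 or 3 (adjusted p 0.055 to 0.0777). MRPS24 had 1.83 ± 0.15 TPM at 24 h against 2.70 ± 0.23 TPM in DMSO (-0.39, adjusted p = 0.00401), and its call at 3 h ended without DMSO replicate 1 or 2 or KB528 3 h replicate 1 or 2 (adjusted p 0.0764 to 0.145).

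MRPS36 and MRPS31 were higher at 24 h. MRPS36, whose product is now known as a subunit of 2-oxoglutarate dehydrogenase and not of the ribosome, averaged 35.8 ± 0.51 TPM at 24 h against 29.97 ± 2.3 TPM in DMSO (0.25). MRPS31 averaged 22.4 ± 0.56 TPM against 19.4 ± 1.5 TPM in DMSO (0.20). The call of MRPS36 ended without DMSO replicate 3 (adjusted p 0.0578) and that of MRPS31 without DMSO replicate 3 or KB528 24 h replicate 2 (0.0649 to 0.0947). Both ended under median-ratio scaling, spike-in scaling and the length correction.

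The 3 paralogs MRPS18A, MRPS18B and MRPS18C, of which the human ribosome holds each at its own site, were called at different times. MRPS18A, placed in the large subunit by structure, averaged 77.2 ± 1.2 TPM at 24 h against 92.0 ± 5.4 TPM in DMSO (-0.25, adjusted p = 0.000296). At 6 h it was 0.12 higher, a call that ended without DMSO replicate 3 or KB528 6 h replicate 2 or 3 (adjusted p 0.0739 to 0.173) and was -0.03 with median-ratio scaling. MRPS18B averaged 23.5 ± 0.42 TPM at 24 h against 26.8 ± 0.63 TPM in DMSO (-0.18, adjusted p = 0.00175) and was called at no other time. MRPS18C rose at 3 h (0.24) and 6 h (0.35, adjusted p = 0.000144), with 53.1 ± 1.4 TPM at 6 h against 41.5 ± 2.9 TPM in DMSO, and was at 41.9 ± 2.3 TPM at 24 h. Differences between the paralogs were not tested.

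At no time against DMSO were MRPL13, MRPL19, MRPL40, MRPL51, MRPS16, MRPS25 and MRPS28 called. MRPL13, MRPS28 and MRPS25 had the largest F-test adjusted p (0.335, 0.285 and 0.255). MRPL51 had 423, 399 and 361 TPM in DMSO and 379, 396 and 398 TPM at 24 h, which overlap. MRPS25 turned to -0.14 at 6 h and -0.11 at 24 h with median-ratio scaling, so the lack of a call does not show a constant level. The most common course among the members called was lower at 24 h alone (11 members or 14.3%, against 2.14% of tested genes, among them MRPL4, MRPL14, MRPL20, MRPS15, MRPS23 and MRPS30), followed by higher at 3 and 6 h alone (9 members or 11.7%, against 2.96%) and higher at 6 h alone (9 members or 11.7%, against 3.27%).

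Some proteins of the same ribosome carry other names. Of 6 tested, 0 were higher at 24 h (limma, 0 also at an unadjusted p under 0.05) and 4 were lower (66.7%). Of all tested genes 56.1% were called higher and 15.2% lower at that time. The 4 lower were AURKAIP1 (-0.26) and PTCD3 (-0.13) of the small subunit and GADD45GIP1 (-0.28) and ICT1 (-0.17) of the large subunit, the last a peptidyl-tRNA hydrolase built into it. DAP3, a GTP-binding protein of the small subunit, had 130 ± 3.9 TPM at 24 h and 135 ± 2.5 TPM in DMSO and was not called.

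Genes that build or serve the ribosome are set here beside all tested genes, with shares called of 44.4% (higher) and 24.5% (lower) at 6 h, and of 56.1% and 15.2% at 24 h. Of 29 tested assembly factors, 20 were higher (69%) and 5 lower (17.2%) at 6 h, while the 24 h comparison had 11 higher (37.9%) and 6 lower (20.7%). Within them RPUSD4 (-0.44) and MPV17L2 (-0.41) were lower at 24 h and RPUSD3 (0.35) higher, the RPUSD proteins being pseudouridine synthases. Of 15 translation factors, 8 were higher (53.3%) and 0 lower at 6 h (limma, 1 lower at an unadjusted p under 0.05), and 6 higher (40%) and 3 lower (20%) at 24 h. MTRF1 (0.54), a release factor homolog, MTFMT (0.53), which formylates the initiator tRNA, and C12orf65 (0.26), a rescue factor, were higher at 24 h.

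Mitochondrial aminoacyl-tRNA synthetases, which charge tRNAs for this ribosome, numbered 14 higher (63.6%) and 0 lower of 22 at 6 h (limma, 0 lower also at an unadjusted p under 0.05) and 10 higher (45.5%) and 2 lower (9.09%) at 24 h. VARS2 (0.79) and TARS2 (0.33) were among those higher at 24 h. Of 24 genes of mitochondrial transcription and RNA processing, 10 were higher (41.7%) and 2 lower (8.33%) at 6 h, while at 24 h 3 were higher (12.5%) and 9 lower (37.5%). TFB2M (-0.39), a transcription initiation factor, and the oligoribonuclease REXO2 (-0.31) were lower, and KIAA0391 (0.39), the nuclease of mitochondrial RNase P, was higher.

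Among 10 tested regulators linked to mitochondrial genes, 5 were higher (50%) and 3 lower (30%) at 6 h, with 5 (50%) and 4 (40%) at 24 h. For all tested genes these shares were 44.4% and 24.5% at 6 h and 56.1% and 15.2% at 24 h. MYC, a transcription factor with mitochondrial genes among its targets, averaged 267 ± 14.6 TPM at 3 h, 235 ± 14.5 at 6 h and 315 ± 4.1 at 24 h, against 808 ± 71.5 TPM in DMSO. NRF1 averaged 23.6 ± 0.79 TPM at 3 h and 14.6 ± 0.11 at 24 h, against 12.8 ± 0.20 TPM in DMSO, changes of 0.83 and 0.18. GABPA and its partner GABPB1 were 0.39 and 0.35 higher at 24 h, the coactivator PPRC1 was 0.63 higher at 1 h and -0.29 at 24 h, and PPARGC1B was -0.43 at 24 h. TFAM, which packages mitochondrial DNA, was 0.33 higher at 6 h and -0.10 at 24 h, the last not called. YY1 was 0.27 higher at 6 h. Whether any of these changes bears on the members was not tested.

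Cytosolic ribosomal proteins and oxidative phosphorylation subunits were counted in the same way. Of 78 cytosolic ribosomal protein genes, 0 were higher (limma, 0 also at an unadjusted p under 0.05) and 18 lower (23.1%, near the share of all tested genes) at 6 h, and 0 (again 0) and 23 (29.5%) at 24 h. Between 6 h and 24 h 3 were higher and 1 lower, against 8 and 51 of the 77 members. Other lists fell more like the members between these times. Assembly factors had 8 higher and 18 lower (62.1%), and mitochondrial transcription and RNA processing 2 and 15 (62.5%). Translation factors had 3 and 8 (53.3%), and mitochondrial aminoacyl-tRNA synthetases 5 and 7 (31.8%). The lower share was 66.2% for members and 26% for all tested genes. Of 75 nuclear oxidative phosphorylation subunits, 8 were higher (10.7%) and 17 lower (22.7%) at 6 h, 9 (12%) and 18 (24%) at 24 h, and 15 and 10 at 24 h against 6 h. ATP5G1, of the ATP synthase ring, was -0.51 at 24 h, and NDUFS1 of complex I was 0.31. Differences between these lists and the members were not tested.

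**Figure D5:**
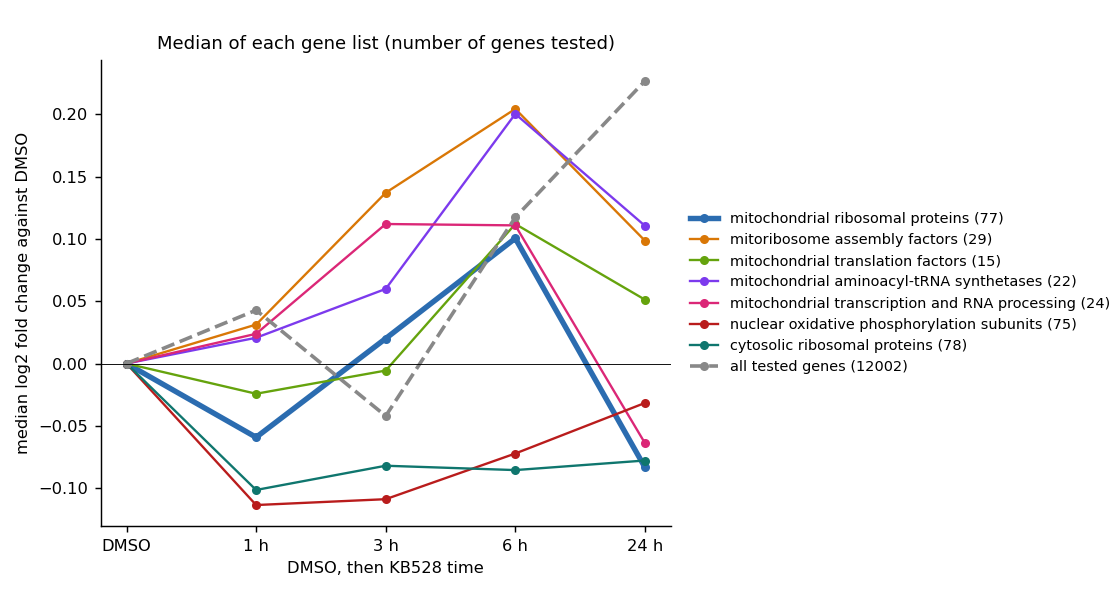
Median log2 fold change against DMSO (y axis) of each gene list in DMSO and at 4 KB528 times (x axis), with the number of genes tested. The members' line stands at 0.10 at 6 h and -0.08 at 24 h (-0.05 and -0.28 with median-ratio scaling), that of the cytosolic ribosomal proteins at -0.09 and -0.08, and that of all tested genes at 0.12 and 0.23.

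Many members share a promoter region with a gene on the other strand. A RefSeq start on the opposite strand lay within 1000 bases for 26 of 68 members (38.2%), against 30.6% of 8639 other tested genes. Of 17 pairs with a tested neighbour, member and neighbour had the same call (higher, lower or none) in 7 at 6 h and in 3 at 24 h, and opposite calls in 2 and 4. The pairs described here were chosen after their values were seen. MRPS12 was 0.00 at 6 h and -0.45 at 24 h, while SARS2, its neighbour at 181 bases and a mitochondrial seryl-tRNA synthetase, was 0.63 and 0.17. MRPL49 was 0.45 at 6 h, while FAU, at 49 bases and the gene of a cytosolic ribosomal protein, was -0.16. At 24 h MRPL49 and FAU were -0.09 and -0.27, both called lower, the 1 pair called in the same direction at that time. MRPL32 was 0.40 and -0.26, while PSMA2, a proteasome subunit gene at 202 bases, was -0.03 and -0.05. MRPS18C and the helicase gene HELQ, 175 bases apart, were 0.35 and 0.36 at 6 h, and 0.02 and 0.35 at 24 h. MRPL27 and EME1, 45 bases apart, were 0.38 and 0.41 at 6 h, and -0.07 and 0.59 at 24 h. MRPL46 and MRPS11 are such a pair within the members, at 0.20 and 0.11 at 6 h and at -0.25 and -0.11 at 24 h, of which the values of MRPL46 were called. Differences between neighbours were not tested.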

How the data were processed

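The authors deposited 1 table of TPM (length-scaled transcript abundance) for 15 libraries. Per the submitters' processing notes the tools were FastQC, MultiQC, STAR and featureCounts and the build hg19, without versions. TPM removes transcript length and library size, so a gene's TPM also moves when abundant genes or spike-ins change, and it keeps no depth. The table's columns for untreated cells at 0 h were matched to the DMSO samples by time and replicate number. The 92 ERCC spike-in rows were left out of the tests.

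The 12002 genes averaging 1 TPM or more were tested by limma (version 3.58.1, R version 4.3.3; lmFit and trended eBayes) on log2(TPM + 1). All 15 libraries entered 1 fit, and p-values were adjusted over all tested genes in each contrast by Benjamini-Hochberg, with a threshold of 0.05. Low genes change by more than this scale shows. No count model was run on TPM. The fit was also run on simulated data, with an outcome that is not reported here. Replicates correlated with r of 0.995 to 0.998, and 0 pairs of libraries were identical.

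The members and lists were chosen with earlier results of these data known. Named members are the 5 called members with the largest rise and the 5 with the largest fall at each time, the 3 highest and 3 lowest in DMSO, the MRPS18 paralogs, up to 6 members called in opposite directions, and the 3 with the smallest and the 3 with the largest F-test p. Further members are named only as counted in a course, as neighbours or between 6 h and 24 h. Up to 3 genes of other lists are named by the smallest adjusted p at 24 h, of which 1 is not reported here. The 6 proteins under other names and the regulators are named beyond that rule, after their values were seen.

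Alternatives tried were a filter of 5 TPM or none, a pseudocount of 0.1, median-ratio and spike-in scaling, a correction for transcript length, no variance trend, a block for the replicate number, only the compared groups, and each library left out. Transcript lengths came from GENCODE (longest protein-coding transcript, found for 94.3% of tested genes and all 77 members). Promoter windows are RefSeq's on GRCh38.p14, while the table was made on hg19, so no coordinate of the table was used. Python 3.11.15 with pandas 2.3.3, numpy 2.4.6, matplotlib 3.10.9 and scipy 1.17.1 made the tables and figures.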

Additional observations from a re-analysis of the deposited data

Results flagged for a closer look

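In 11 members (14.3%, against 15.7% of all tested genes) the change from DMSO differed between consecutive KB528 times, where time in culture also differs. The calls against DMSO went in opposite directions, and the difference between the times was itself called by limma. At 24 h against 6 h this difference (log2) was -0.71 for MRPL54, -0.66 for MRPL32, -0.60 for MRPL1, -0.59 for MRPS26, -0.54 for MRPL49, -0.46 for MRPL46, -0.41 for MRPL50, -0.40 for MRPL2, -0.37 for MRPS18A, -0.34 for MRPL17 and -0.30 for MRPL3. Each was called higher than DMSO at 6 h and lower at 24 h (2.63% of tested genes). Both calls were kept by 4 of the 11 with median-ratio scaling (MRPL2, MRPL32, MRPL49 and MRPL54), which put MRPS18A at -0.03 and MRPL3 at -0.01 at 6 h, by 9 with the length correction, and by 0 with spike-in scaling, where no call at 24 h remained. Both calls held without any 1 library in 4 (MRPL3, MRPL32, MRPL46 and MRPL54), while the call at 24 h ended without at least 1 library in MRPL1, MRPL2, MRPL17, MRPL49, MRPL50 and MRPS26 (adjusted p 0.0535 to 0.198) and that at 6 h in MRPS18A (0.0739 to 0.173). MRPL17 met the same condition at 3 h against 1 h, with a difference of 0.36 (adjusted p = 0.000127), being lower than DMSO at 1 h (-0.18) and higher at 3 h (0.18). The adjusted p of the difference at 24 h against 6 h was 1.17e-07 for MRPL54 and 3.08e-08 for MRPL32. Both calls against DMSO rest on the same 3 DMSO libraries.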

How the results depend on the processing

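Counts of called members were within 1.5 times of those reported with a pseudocount of 0.1 and a filter of 5 TPM. Without a filter the count lower at 6 h against 3 h was 0, without the variance trend 1. With only the compared groups, 1 was higher and 4 were lower at 1 h, 5 lower at 3 h and 0 lower at 6 h against 3 h. Over all groups 7 of 30 same-number pairs had deviations correlated over 0.1 (range -0.157 to 0.43). KB528 6 h and DMSO were the only pair of groups where all 3 exceeded it (0.136 to 0.152), as a hint from the data, and there the replicate block gave 35 higher and 12 lower, the counts without it. It moved the count lower at 3 h against 1 h to 1 and no other count by over 1.5 times.

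Median-ratio scaling gave 19 lower at 1 h, 18 higher with 27 lower at 6 h, 0 and 58 at 24 h, 34 higher at 3 h against 1 h, 1 higher and 23 lower at 6 h against 3 h and 3 higher at 24 h against 6 h. Spike-in scaling gave 0 higher and 0 lower at 1 h, 0 and 4 by 3 h, 20 and 0 at 6 h, 0 and 1 after 24 h, 0 higher at 3 h against 1 h, 48 and 0 at 6 h against 3 h, 0 and 31 at 24 h against 6 h, and 38 called over the time course. The length correction gave 32 higher at 3 h, 1 higher and 55 lower at 24 h, 1 lower at 3 h against 1 h, 16 and 12 at 6 h against 3 h and 2 higher at 24 h against 6 h. The cause of these moves was not tested.

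With 1 library left out, the counts ranged over 2 to 5 higher and 4 to 24 lower at 1 h, 19 to 21 and 5 to 22 at 3 h, 31 to 35 and 9 to 14 at 6 h, and 5 to 9 and 27 to 38 at 24 h. They ranged over 16 to 23 and 0 to 1 at 3 h against 1 h, 18 to 32 and 0 to 3 at 6 h against 3 h, 3 to 8 and 48 to 50 at 24 h against 6 h, and 66 to 73 over the time course.

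Of 78 called changes of named members, 15 kept call and direction under every alternative. The direction turned for 10 values of called changes. Spike-in scaling turned MRPL49 (-0.025), MRPL17 (-0.042), MRPS2 (-0.034) and MRPS10 (-0.014) at 3 h and MRPL55 (0.026), MRPS34 (0.022) and MRPL12 (0.037) at 6 h. Median-ratio scaling turned MRPL28 (-0.023) and MRPS18A (-0.034) at 6 h and MRPL16 (-0.090) at 24 h. Another 11 values turned for changes that were not called as reported and were called lower under the alternative. With median-ratio scaling these were MRPS18B (-0.13) and MRPS25 (-0.14) at 6 h. At 24 h they were MRPS22 (-0.16), MRPL15 (-0.19), MRPL19 (-0.14), MRPS10 (-0.17) and MRPS25 (-0.11). With the length correction they were MRPL19 (-0.20), MRPS10 (-0.15) and MRPS25 (-0.19) at 24 h and MRPS25 (-0.18) at 6 h. Depth limits MRPS24 most, the lowest member.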
